A study of Mus musculus with 234 samples.

Results

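The nuclear genes of respiratory complex I were described in single cardiomyocytes (CMs) of mice that express a mutated form of the cochaperone BAG3. The genes were all features of the deposited counts whose symbol starts with Nduf and does not end in -ps, that had a count in at least 10% of all cells. Of 51 symbols with Nduf, 2 were left out by the ending of their name, Ndufab1-ps and Ndufb1-ps, with a count in 72.2% and 95.3% of cells. Whether they are pseudogenes was not tested. The other 49 were all kept, out of 55538 features. Each of the 49 passed the limit of 10%: Ndufa4l2 was detected in 10.7% of the 234 cells, Ndufa11b in 18.4% and each of the others in at least 62.0%, so that no gene lay just outside the limit. The 49 genes comprise 36 structural subunits of complex I, 8 assembly factors named Ndufaf and 5 other genes with an Nduf name, Ndufa4, Ndufa4l2, Ndufa11b, Ndufb4c and Ndufs6b.

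The cells came from 5 mice. The control group held 24 CMs of mouse M26 and 9 of mouse M73, both with the strain label C57BL/6. The homozygous group, PGKcre:BAG3P209L_homo, held mice M25 (21 CMs with bright and 18 with dim eGFP fluorescence) and M116 (59 bright and 50 dim), and the heterozygous group, PGKcre:BAG3P209L_het, held mouse M72 (27 bright and 26 dim). The transgene codes for human BAG3P209L fused to eGFP behind a floxed STOP cassette, under the ubiquitous CAG promoter in the Rosa26 locus, and PGK-Cre, which acts in the whole animal, deleted the cassette. Homozygous mice carried both transgenic alleles, with the cassette deleted on 1 or on both. The titles label the cells of both control mice wt. The paper defines its controls more widely, as siblings that were wild type or carried either PGK-Cre or the undeleted transgene. The methods give a mixed background for the line. The mice were 2 weeks old, apart from M72, whose age is not given. The titles give each cell a well and the name of 1 of 4 library sets. Set 1 held M25 and M26, set 2 held M72 and M73, and sets 3 and 4 held M116. Every heart was dissociated by Langendorff perfusion, and CMs were picked by hand and judged bright or dim under a fluorescence macroscope. The comparisons address which genes differ between CMs with and without the mutant protein, and between CMs that hold more and less of it.

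Complex I is the entry point of the respiratory chain. It oxidizes NADH, passes the electrons to ubiquinone and pumps protons across the inner mitochondrial membrane, and the heart depends on it for most of its ATP. The matrix arm is made of the N module, which binds NADH, and the Q module, which reduces ubiquinone, and the membrane arm has a proximal and a distal part. The 7 nuclear core subunits of the matrix arm carry the flavin and the iron-sulphur clusters, whereas the core subunits of the membrane arm are encoded in mitochondrial DNA. Accessory subunits surround the core and stabilize it. Assembly factors help to put the complex together and are not part of the finished enzyme.

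Upstream sequences are shown for 6 genes because NRF1, GABP, the oestrogen-related receptors and YY1 are known regulators of nuclear respiratory genes, and the results below turn on how far these genes vary together. The 6 are a core subunit (Ndufv2), accessory subunits with and without a motif in the printed bases (Ndufa9, Ndufb6, Ndufa3) and the assembly factor with the lowest log2 fold change against control (Ndufaf5) beside one whose controls differed widely (Ndufaf1). Each line gives the 120 bases before the RefSeq start in GRCm38.p6, in the direction of the gene, and none of these windows shared 15 bases with a GENCODE transcript of its gene. Capitals mark a motif.
Ndufv2, chr17:66101560-66101679, minus strand: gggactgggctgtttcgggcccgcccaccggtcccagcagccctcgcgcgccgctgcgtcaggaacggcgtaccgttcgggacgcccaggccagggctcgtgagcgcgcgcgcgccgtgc
Ndufa9, chr6:126849145-126849264, minus strand: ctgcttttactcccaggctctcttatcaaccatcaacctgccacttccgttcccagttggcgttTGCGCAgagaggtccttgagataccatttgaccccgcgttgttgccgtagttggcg
Ndufb6, chr4:40279422-40279541, minus strand: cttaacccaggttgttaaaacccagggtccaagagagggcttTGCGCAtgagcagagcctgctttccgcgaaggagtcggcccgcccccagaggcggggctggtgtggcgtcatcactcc
Ndufa3, chr7:3617253-3617372, plus strand: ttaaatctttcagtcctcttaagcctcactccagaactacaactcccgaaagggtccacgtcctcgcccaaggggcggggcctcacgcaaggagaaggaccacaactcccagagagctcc
Ndufaf5, chr2:140170526-140170645, plus strand: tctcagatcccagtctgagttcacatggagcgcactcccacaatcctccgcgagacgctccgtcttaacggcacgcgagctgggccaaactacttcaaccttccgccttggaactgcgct
Ndufaf1, chr2:119662835-119662954, minus strand: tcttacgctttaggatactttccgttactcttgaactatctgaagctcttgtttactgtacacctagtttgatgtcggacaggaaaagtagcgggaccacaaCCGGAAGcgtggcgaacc
The capitals mark TGCGCA, the centre of the NRF1 motif, starting 56 bases before the start in Ndufa9 and 78 before it in Ndufb6, and CCGGAAG of the ETS factors, which include GABP, 18 bases before the start of Ndufaf1. The search also covered AAGGTCA of the oestrogen-related receptors (ERR) and AAGATGG of YY1, on both strands. TGCGCA is its own reverse complement, and CCGGAAG and AAGATGG can overlap in the letters AAG. In windows from 250 bases before to 50 after the start, 10 of the 32 complex I subunits with an entry held TGCGCA (31.2%), against 16.5% of the 8877 genes tested below that have an entry and 8.79% of all 27025 genes of the table. The YY1 letters stood in 7 of the 32 (21.9%, against 8.79% of the genes tested and 7.28% of all genes), the ERR letters in 3 (9.38%, against 3.89% and 5.38%) and the ETS letters in 4 (12.5%, against 21.4% and 9.93%). Of the 7 assembly factors with an entry, 1 held TGCGCA, 1 the YY1 letters, 2 the ETS letters and none the ERR letters.

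The data are counts of reads per gene from SMART-seq2, which reads whole transcripts and adds no molecular identifiers. The animal is the replicate, so counts were added up over cells that share mouse and brightness, which gave 8 sums of 4096609 to 40508124 counts. Control mouse M73 stood apart: its 9 CMs gave the smallest sum, 31.7% of it from mitochondrial genes against 24.7% to 29.1% in the other 7 sums. The 8 CM markers added up to between 56830 and 83005 CPM (counts scaled to the total of the sum) in each sum, with none at 0. They were at 66713 and 83005 CPM in the controls M26 and M73, lower in all 4 homozygous sums (58915 and 56830 in bright and 64226 and 57109 in dim CMs of M25 and M116) and at 81561 and 75753 in the heterozygous ones, so that they moved with the homozygous values of the subunits below. Markers of other cells were low (endothelial at most 176 CPM, mural 138, macrophage 50.2), except that fibroblast markers reached 2238 CPM in the bright CMs of M25, against 22.9 to 468 in the other sums, and erythroid markers 987 CPM in the bright CMs of M72 and 345 in the dim CMs of M25. Ptprc and Adgre1, which mark leukocytes and macrophages, were both at 0 in 5 of the 8 sums. The part of these markers in the results was not tested. A single cell among the bright CMs of M25 had only 517 CPM of CM markers. Of the 234 cells, 0 were identical to another in all counts.

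Levels between genes are given as normalized CPM per kilobase of transcript, averaged over the 8 sums. The structural subunits had a median of 638, from 23.2 for Ndufb2, whose principal transcript is annotated with 4371 bases, to 1971 for Ndufb10. Core subunits had a median of 630, from 193 for Ndufs1, the largest subunit, to 900.2 for Ndufs7. The assembly factors lay lower, with a median of 31.8 and a range from 16.5 for Ndufaf7 to 68.6 for Ndufaf8. The most abundant of the 49 was Ndufa4 with 3634, a gene named after complex I whose product is now known as a subunit of cytochrome c oxidase. The least abundant were Ndufa11b with 1.21, Ndufa4l2 with 4.90, Ndufb4c with 7.24 and Ndufs6b with 8.97. The summed counts of the 8 assembly factors were between 1.25% and 1.95% of those of the 36 subunits in each of the 8 sums.

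Compared with control CMs, homozygous bright CMs had lower values for most subunits, and no gene of the 49 passed the test. The log2 fold change was below 0 for 42 of the 48 genes that could be tested, with a median of -0.41, against a median of 0.11 over all 12203 genes tested. It was below 0 for 35 of 36 structural subunits (median -0.42) and for 4 of 8 assembly factors (median 0.11, range -1.25 to 0.80). With edgeR's quasi-likelihood test and Benjamini-Hochberg adjustment over all genes, 0 members were called, beside 2 of all genes (0.0164%). Adjusted p was between 0.663 and 0.999 for the members. At an unadjusted p under 0.05, 6 members were lower and 0 higher, beside 1.85% and 4.7% of all genes, and DESeq2 called 0 members beside 0.754%. Both homozygous mice lay below both control mice for 25 of the 48 and above both for 0, beside 14.3% and 24.6% of all genes. Ndufa11b, with at most 2.6 normalized CPM, did not pass the filter on low counts. The median over the members was -0.11 with library size alone, where 33 of 48 were lower, and -0.20 without control M26. With each cell given equal weight, cells of few genes included, it was 0.16, beside 0.32 for all genes, and 19 of 48 were lower. With that weight and cells of at least 1000 genes alone it was -0.30, beside 0.21 for all genes, and 38 of 48 were lower. With 2 mice a group, these p-values rest on little information about the spread between mice. In counts scaled to a total, less RNA of a gene and more RNA of the other genes cannot be told apart.

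**Figure D1:**
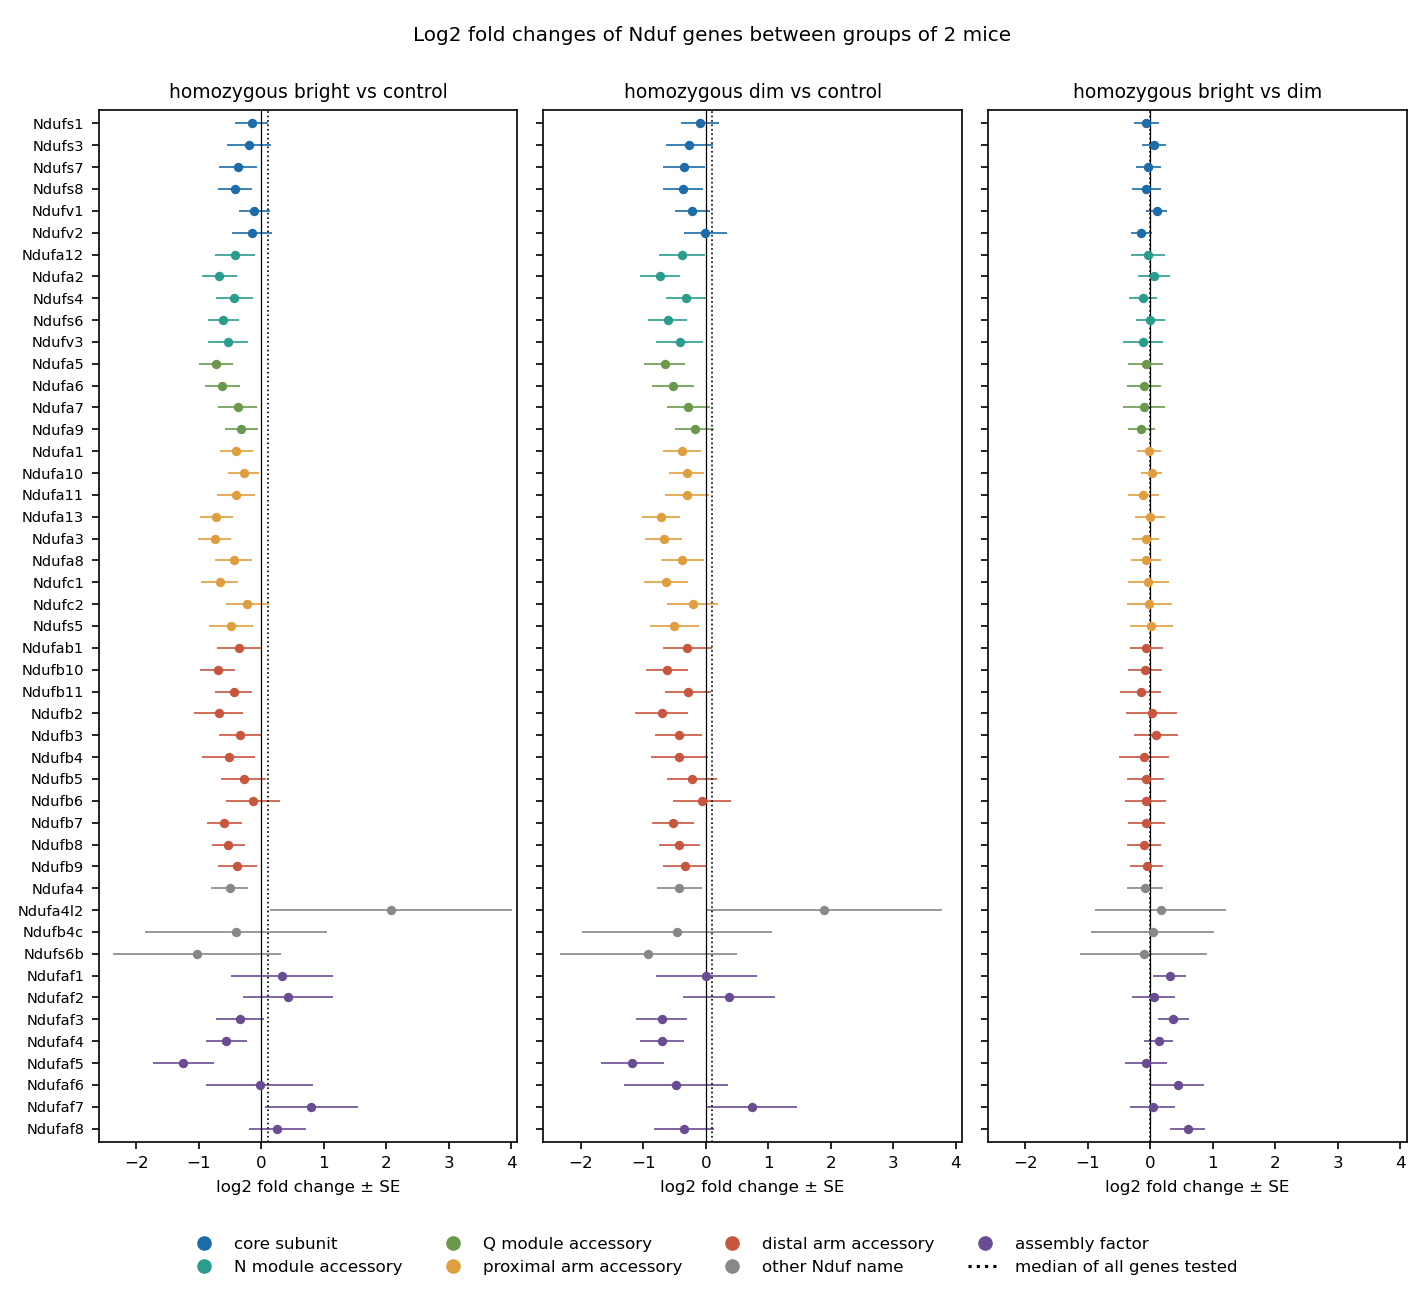
Log2 fold change (horizontal axis, point) with its standard error (line) of the tested Nduf genes in each of the 3 comparisons, with 2 mice a group, coloured by the role of the gene; the dotted line is the median of all genes tested. In both comparisons with control, accessory subunits lie left of 0 while assembly factors lie on both sides, and most subunits lie near 0 between bright and dim CMs of the same mice, which changes with equal weight for each cell (median of the members -0.42).

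Among the structural subunits, the core subunits had the smallest median difference from control in the comparison of both mice, which was not tested against that of the accessory subunits. The gap differed between the pairs of mice that were compared. Within set 1, bright CMs of M25 against M26 gave -0.43 for the core and -0.46 for the accessory subunits, and dim CMs -0.30 and -0.35. Against M73 the medians were -0.06 and -0.47 for bright and 0.11 and -0.54 for dim CMs of M116, which share no set with it. They were -0.01 and -0.33 for the heterozygous bright and -0.06 and -0.36 for the heterozygous dim CMs, of the set of M73. Between the controls, M73 minus M26, they were -0.35 and -0.37. For M116 minus M25 they were -0.08 and -0.38 in bright and -0.17 and -0.60 in dim CMs. Ndufv1, which holds the flavin and binds NADH, had 1344 and 1264 normalized CPM in control, 1244 and 1209 in homozygous bright, 1136 and 1141 in homozygous dim and 1071 and 1144 in heterozygous CMs, in the order M26 and M73, M25 and M116, M25 and M116, and bright and dim of M72, which is kept below. Every sum of transgenic CMs lay below both controls, by a small margin, and the log2 fold change in bright CMs was -0.11 (SE 0.25, adjusted p = 0.977).

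Ndufv2, its partner in the N module, had 1467 and 858 normalized CPM in control, 1089 and 1038 in homozygous bright, 1190.2 and 1145 in homozygous dim and 939 and 820.2 in heterozygous CMs. M26 was the highest sum and M73 lay below all 4 homozygous sums, so that the groups overlapped, with -0.14 (SE 0.32, adjusted p = 0.977) in bright CMs. Ndufs1, the iron-sulphur subunit that carries most clusters, had 591 and 536 normalized CPM in control, 539 and 489 in homozygous bright, 480.0 and 589 in homozygous dim and 455 and 429 in heterozygous CMs. Its groups overlapped as well, with -0.15 (SE 0.26, adjusted p = 0.971).

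Ndufs3 and Ndufs7 of the Q module differed most between the 2 controls among the Q module core subunits. Ndufs3 had 556 and 302 normalized CPM in control, 387 and 367 in homozygous bright, 386 and 334 in homozygous dim and 358 and 338 in heterozygous CMs, and Ndufs7 had 1291 and 812 normalized CPM in control, 879 and 765 in homozygous bright, 924 and 747 in homozygous dim and 805 and 857 in heterozygous CMs. In both, M26 was above all other sums and M73 was among the lower ones, and the log2 fold changes were -0.20 (SE 0.35, adjusted p = 0.972) and -0.37 (SE 0.31, adjusted p = 0.929). Reads on Ndufs3 are uncertain, since 28.2% of the 75-base stretches of its transcript also occur in the pseudogene Gm12251. Ndufs8, an iron-sulphur subunit, had 874 and 691 normalized CPM in control, 647 and 538 in homozygous bright, 700.4 and 531 in homozygous dim and 512 and 583 in heterozygous CMs. Both homozygous bright sums were below both controls, whereas dim M25 was above M73, and the log2 fold change of bright CMs was -0.42 (SE 0.28, adjusted p = 0.905), the lowest of the core subunits.

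All 29 accessory subunits had a log2 fold change below 0 in bright CMs, with a median of -0.44 against -0.15 for the 7 core subunits. The medians of the groups were -0.53 for the 5 of the N module, -0.50 for the 4 of the Q module, -0.44 for the 9 of the proximal and -0.44 for the 11 of the distal membrane arm. The accessory subunits with the largest differences among those whose mice did not overlap were Ndufa3, Ndufa5 and Ndufa13. Ndufa3, a small subunit of the proximal arm, had 1139 and 1050.3 normalized CPM in control, 719 and 607 in homozygous bright, 783 and 607 in homozygous dim and 794 and 759.9 in heterozygous CMs. All transgenic sums were below both controls, and those of M116 were the lowest. The log2 fold change was -0.75 (SE 0.26, adjusted p = 0.663). With each cell given equal weight it was 0.25, and -0.61 with that weight and cells of at least 1000 genes alone.

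Ndufa5 of the Q module had 1426 and 1397 normalized CPM in control, 985 and 747 in homozygous bright, 1094 and 717 in homozygous dim and 1047 and 1003 in heterozygous CMs. The 2 controls differed by little, and M25 and M116 differed more from each other, with a log2 fold change of -0.73 (SE 0.27, adjusted p = 0.709). Ndufa13, also known as GRIM-19, had 1618 and 1766 normalized CPM in control, 1172 and 922 in homozygous bright, 1199.8 and 886 in homozygous dim and 1190.0 and 1289 in heterozygous CMs. M73 was above M26 here, unlike in most subunits, and the log2 fold change was -0.72 (SE 0.27, adjusted p = 0.719). Of its 75-base stretches 25.6% are shared with the overlapping gene Tssk6. The other accessory subunits at an unadjusted p under 0.05 were Ndufb10, a distal arm subunit, with -0.70 (SE 0.28, adjusted p = 0.761), and Ndufa2, a thioredoxin-like subunit of the N module, with -0.67 (SE 0.27, adjusted p = 0.761).

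**Figure D2:**
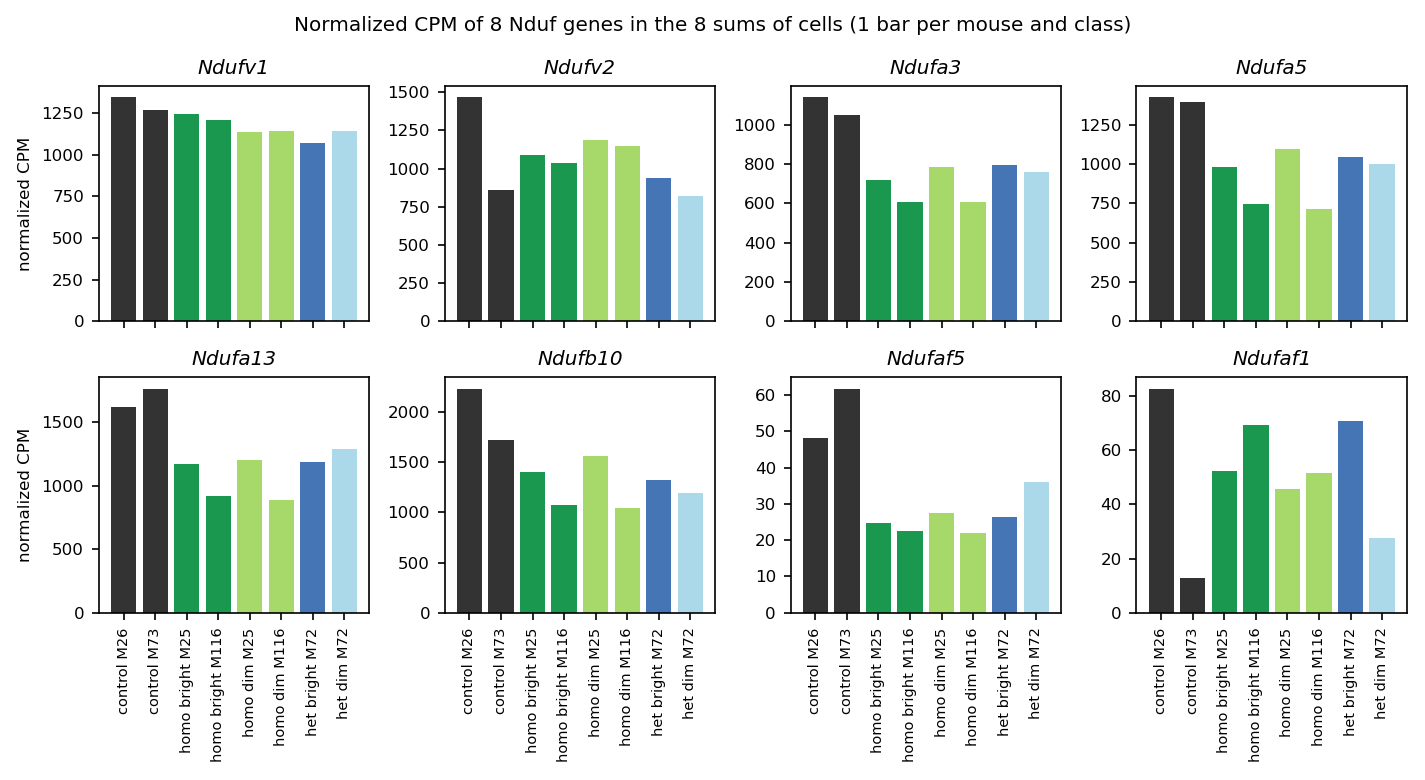
Normalized CPM (vertical axes, from 0) of 8 Nduf genes, with 1 bar for each sum of the cells of a mouse and brightness class, so that a group of 2 bars shows its 2 mice. Ndufa3, Ndufa5, Ndufa13, Ndufb10 and Ndufaf5 are lower in all transgenic sums than in both controls, Ndufv2 is not, and Ndufaf1 is at 82.7 in control M26 and at 12.8 in control M73.

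Ndufs4 and Ndufs6, 2 accessory subunits of the N module that are often mutated in patients with complex I deficiency, had lower values in homozygous bright CMs of both mice. Ndufs4 had 701 and 522 normalized CPM in control, 512 and 409 in homozygous bright, 559 and 434 in homozygous dim and 461 and 406 in heterozygous CMs. Bright M25 was just below M73, and the log2 fold change was -0.43 (SE 0.30, adjusted p = 0.909). Ndufs6, which binds zinc, had 1459 and 1329.5 normalized CPM in control, 986 and 876 in homozygous bright, 1073 and 777 in homozygous dim and 1061 and 1054 in heterozygous CMs. All transgenic sums were below both controls, with -0.60 (SE 0.25, adjusted p = 0.771) in bright CMs. Ndufab1, the mitochondrial acyl carrier protein, which also serves fatty acid synthesis and iron-sulphur cluster assembly, had 592 and 334 normalized CPM in control, 414 and 319.8 in homozygous bright, 448 and 314 in homozygous dim and 365 and 364 in heterozygous CMs. M26 was the highest and the other sums scattered around M73, with -0.35 (SE 0.36, adjusted p = 0.949).

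The genes with an Nduf name outside complex I did not form a group. Ndufa4 had 3215 and 2312 normalized CPM in control, 2232 and 1712 in homozygous bright, 2563 and 1597 in homozygous dim and 2051 and 2052 in heterozygous CMs. Both bright sums lay below both controls, and the log2 fold change was -0.51 (SE 0.29, adjusted p = 0.876). Ndufs6b, a near copy of Ndufs6, had 3.07 and 5.51 normalized CPM in control, 1.81 and 2.44 in homozygous bright, 2.78 and 1.78 in homozygous dim and 3.57 and 4 in heterozygous CMs. These are low values, and although the mice did not overlap, the log2 fold change of -1.03 (SE 1.34, adjusted p = 0.953) had an error larger than itself. Ndufa4l2, a paralogue of Ndufa4 known to respond to hypoxia, was at 0 counts in M73 and had 2.57 and 0 (control), 9.82 and 1.71 (homozygous bright), 7.3 and 2.92 (homozygous dim), and 2.96 and 9.36 (heterozygous) normalized CPM. Both mice of the homozygous dim group were above both controls, and bright M116 was not, with log2 fold changes of 2.07 (SE 1.94, adjusted p = 0.936) in bright and 1.89 (SE 1.89, adjusted p = 0.999) in dim CMs. With M73 at 0 counts these values depend on the prior count of the fit. Without M73 the value in dim CMs was 0.99, and against M26 of the same set the log2 differences of M25 were 1.75 in bright and 1.35 in dim CMs. Every 75-base stretch of Ndufb4c occurs in Ndufb4 or another gene. Reads that map to several places are left out of the counts, and what set its counted reads apart from those of Ndufb4 was not tested.

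The 8 assembly factors differed among themselves more than the subunits did. Ndufaf5, which hydroxylates an arginine of Ndufs7, had 48.03 and 61.8 normalized CPM in control, 24.7 and 22.5 in homozygous bright, 27.4 and 21.9 in homozygous dim and 26.4 and 36.2 in heterozygous CMs. All transgenic sums were below both controls, and the heterozygous bright value lay within the homozygous range while the dim one lay above it. The log2 fold change was -1.25 (SE 0.49, adjusted p = 0.739) in bright and -1.17 (SE 0.50, adjusted p = 0.82) in dim CMs, the lowest of the 48 genes in both comparisons, and it did not pass the test. The log2 difference was -0.95 for bright M25 against M26 of the same set and -1.44 for bright M116 against M73.

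Ndufaf3 and Ndufaf4, partners early in the assembly of the Q module, were also lower in all 4 homozygous sums. Ndufaf3 had 80.5 and 66.97 normalized CPM in control, 63.97 and 54.8 in homozygous bright, 43.4 and 47.9 in homozygous dim and 41.6 and 60.4 in heterozygous CMs, with -0.33 (SE 0.38, adjusted p = 0.95) in bright and -0.71 (SE 0.41, adjusted p = 0.957) in dim CMs, the latter at 0.82 with each cell given equal weight. Ndufaf4 had 145 and 175 normalized CPM in control, 111 and 109 in homozygous bright, 88.7 and 111 in homozygous dim and 88.7 and 107 in heterozygous CMs, with -0.56 (SE 0.33, adjusted p = 0.876) in bright and -0.70 (SE 0.35, adjusted p = 0.921) in dim CMs. In both genes all 4 homozygous sums were below the lower control. Ndufaf2, a paralogue of Ndufa12 that takes its place during assembly, had 20.3 and 10.7 normalized CPM in control, 19.7 and 22.7 in homozygous bright, 21.2 and 19.5 in homozygous dim and 23.5 and 32.7 in heterozygous CMs. M73 was the lowest sum, and the other sums were near M26 or above it.

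Control M73 had the lowest value of the 8 sums in Ndufaf1, Ndufaf2 and Ndufaf7 and the second lowest in Ndufaf6 and Ndufaf8. Ndufaf1, part of the complex that assembles the membrane arm, had 82.7 and 12.8 normalized CPM in control, 52.2 and 69.4 in homozygous bright, 45.9 and 51.7 in homozygous dim and 70.7 and 27.5 in heterozygous CMs. The 2 controls lay on both sides of every other sum. Ndufaf6 had 75.2 and 12.2 normalized CPM in control, 57.1 and 29.3 in homozygous bright, 37.4 and 26.2 in homozygous dim and 17.02 and 9.86 in heterozygous CMs, and Ndufaf7, a methyltransferase, had 31.1 and 9.57 normalized CPM in control, 26.6 and 45.1 in homozygous bright, 38.1 and 31.1 in homozygous dim and 33.7 and 15.3 in heterozygous CMs. For these 3 and Ndufaf2 the standard errors of the bright comparison were 0.72 to 0.86, against at most 0.43 for the 36 subunits. Ndufaf8, a partner of Ndufaf5, had 61.4 and 39.4 normalized CPM in control, 70.9 and 51.02 in homozygous bright, 40.98 and 39.3 in homozygous dim and 73.01 and 52.7 in heterozygous CMs. Its highest values were in bright CMs of M72 and M25, and its groups overlapped.

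Homozygous dim CMs also had lower values than control for most subunits. They come from the same 2 mice as the bright CMs and were compared with the same controls. The log2 fold change was below 0 for 44 of 48 members (median -0.38, against 0.10 over all 12195 genes tested), for all 36 structural subunits (median -0.37, range -0.73 to -0.01) and for 5 of 8 assembly factors (median -0.41). Core subunits had a median of -0.21 and accessory subunits of -0.42. With edgeR 0 members and 0 of all genes (0%) were called, and 0 members were lower or higher at an unadjusted p under 0.05, beside 1.83% and 4.4% of all genes. DESeq2 called 0 members, beside 0.435%. Both mice were below both controls for 18 of 48 and above for 1, Ndufa4l2, beside 13.7% and 24.1% of all genes. Adjusted p for the members was at least 0.820. The median over the members was -0.10 with library size alone, where 34 of 48 were lower, and -0.12 without control M26. With each cell given equal weight it was 0.46 and 8 of 48 were lower, and -0.04 and 28 of 48 with cells of at least 1000 genes alone. Besides Ndufaf5, Ndufs6b and Ndufaf3, the lowest log2 fold changes among genes whose mice did not overlap were those of Ndufa2, with 1072 and 1108 normalized CPM in control, 786 and 607 in homozygous bright, 785 and 546 in homozygous dim and 827 and 871 in heterozygous CMs and a log2 fold change of -0.73 (SE 0.32, adjusted p = 0.84), and Ndufa13, with -0.72 (SE 0.31, adjusted p = 0.831).

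In bright against dim CMs of the 2 homozygous mice, no complex I subunit passed the test. The median log2 fold change was -0.06 for the 36 subunits (range -0.16 to 0.10), -0.05 for the 48 members and -0.01 over all 13439 genes tested. With each cell given equal weight the median over the members was -0.42 and 44 of 48 were lower in bright CMs, and -0.26 and 43 of 48 with cells of at least 1000 genes alone. The assembly factors had a median of 0.22, and 7 of 8 were higher in bright CMs. With edgeR 0 members and 0 of all genes (0%) were called, and 0 members had an unadjusted p under 0.05, beside 2.09% of all genes lower and 2.03% higher. DESeq2 called 0 members, beside 0.677%. Both bright sums were below both dim sums for 1 member, Ndufv2, with -0.14 (SE 0.17, adjusted p = 0.999), and above for 4, beside 15.8% and 15.3% of all genes. The 4 were Ndufaf8 with 0.60 (SE 0.28, adjusted p = 0.999), Ndufaf3 with 0.37 (SE 0.25, adjusted p = 0.999), Ndufaf1 with 0.31 (SE 0.26, adjusted p = 0.999) and Ndufv1 with 0.10 (SE 0.17, adjusted p = 0.999), the last at -0.32 with each cell given equal weight. Each mouse gives its own bright and dim CMs. The log2 difference of bright minus dim was below 0 for 30 of 36 subunits in M25 (median -0.13) and for 4 of 36 in M116 (median 0.06). The bright CMs of M25 include cells with sums of subunits of 221, 2400 and 3080 CPM, whose part in its difference was not tested. In cells with at least 1000 genes, the median sum of M25 was 28729 CPM in bright and 28823 in dim CMs. The bright and dim CMs of M116 came from sets 3 and 4 in unequal shares, and within the sets the difference was below 0 for 15 of 36 subunits in set 3 (median 0.03) and for 14 of 36 in set 4 (median 0.04). In the heterozygous mouse it was below 0 for 12 of 36 (median 0.03).

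The differences between single mice were set beside those between groups, on the log2 of normalized CPM. A constant below 1 was added before the log2, and 1 for bright minus dim within the sets of M116. In set 1, all 36 subunits were lower in bright CMs of M25 than in M26 (median -0.46) and 35 of 36 in its dim CMs (median -0.33), whereas the medians of all genes were 0.00 and -0.01. In set 2, 28 of 36 subunits were lower in heterozygous bright CMs (median -0.25) and 29 of 36 in heterozygous dim CMs (median -0.32), beside medians of all genes of 0.23 and 0.29. M116 shared no set with a control. Against M73, 32 of 36 subunits were lower in its bright CMs (median -0.36) and 31 of 36 in its dim CMs (median -0.38), beside 0.48 and 0.36 for all genes.

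Mice of 1 genotype differed as well, and for the 2 controls the median of the subunits was near that of all genes. Control M73 had lower values than control M26 in 33 of 36 subunits, with a median difference of -0.36 and one of -0.37 over all genes. Homozygous M116 had lower values than M25 in all 36 subunits of bright CMs (median -0.35) and in 34 of 36 of dim CMs (median -0.56), beside 0.02 and 0.03 for all genes. Both M73 and M116 came from sets 2 to 4 and the mice they were set against from set 1, so the set and the animal cannot be told apart in this difference. Within M116, cells of set 4 had higher values than those of set 3, with a median difference over the subunits of 0.29 in bright and 0.25 in dim CMs, where all genes had 0.00 and -0.01. With a term for set 1 against sets 2 to 4, the median over the members was -0.40 in bright and -0.35 in dim CMs, and 0 members were called.

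**Figure D3:**
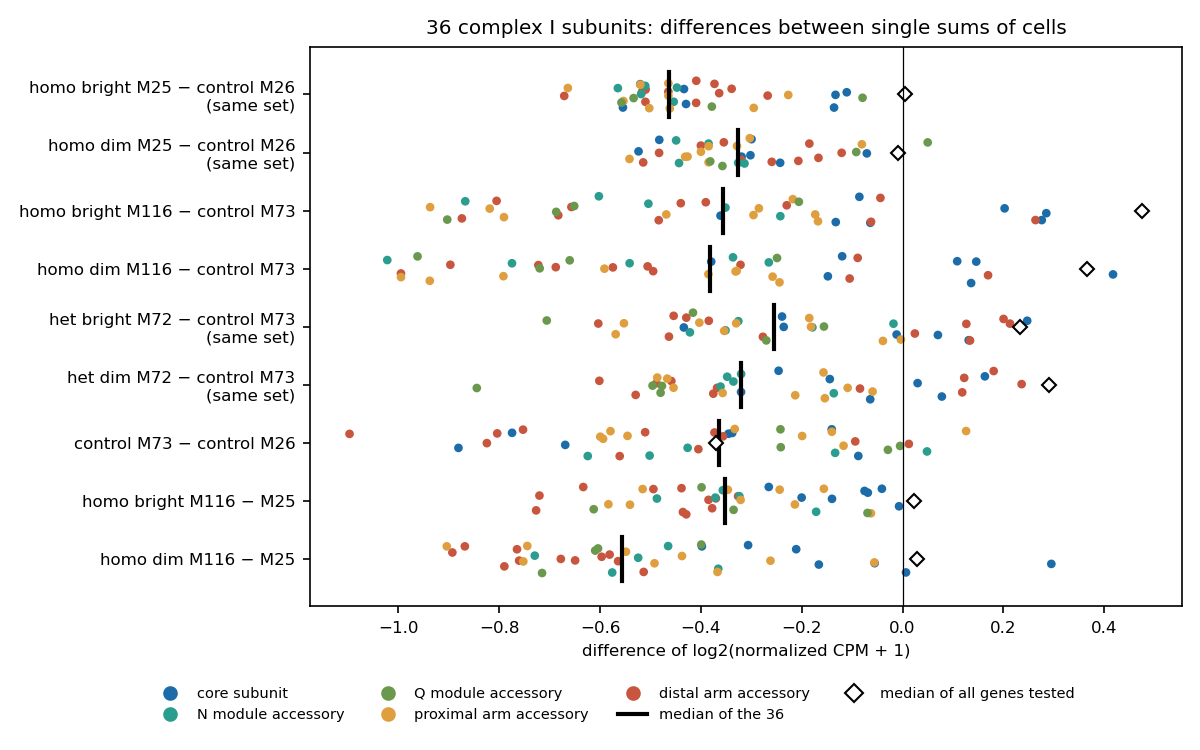
Difference between single sums of cells in the log2 of normalized CPM (horizontal axis) for the 36 complex I subunits (points, coloured by role). Their median (bar) and that of all genes tested (diamond) are also shown. The constant added before the log2 was smaller than the 1 in the axis title. The median of the subunits lies below 0 in each transgenic minus control difference, and also for control M73 against control M26 and for M116 against M25.

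Other genes of the respiratory chain had lower values as well, and 0 passed the test. Of the 47 tested nuclear subunits of complexes II to V, taken by symbol, 39 had a log2 fold change below 0 in bright CMs (median -0.37) and 39 in dim CMs (median -0.35). None was called by edgeR or DESeq2, and 6 and 5, all lower, had an unadjusted p under 0.05, beside 1.85% and 1.83% of all genes. The medians over all genes were 0.11 and 0.10. Of the subunits of complex I that mitochondrial DNA encodes, 5 of 6 tested were lower in bright CMs (median -0.34) and 4 of 5 in dim CMs (median -0.35), with 0 and 1 at an unadjusted p under 0.05. Among 12 assembly factors of complex I without an Ndufaf name, 8 were lower in bright (median -0.50, range -0.996 to 1.18) and 7 in dim CMs (median -0.45), with 0 at an unadjusted p under 0.05 in either.

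The members have short transcripts, and the log2 fold changes differed between genes of different length, without a single direction. The median transcript length was 934 bases for the members and 2887 for the genes tested. Genes other than the members with at most 700 bases had a median log2 fold change of -0.18 in bright and -0.22 in dim CMs, those of 1501 to 2500 bases 0.24 and 0.19 and those over 4000 bases 0.09 and 0.12. In the first of these classes the 16 members had -0.49 and -0.44, in the second the 7 members -0.14 and -0.21, and in the last the 1 member, Ndufb2, -0.68 and -0.71. Genes of like length and like level as the members (540 to 1830 bases and 34.8 to 1129 CPM in the bright comparison, the 10th to 90th percentiles of the members) had medians of -0.10 (757 genes, 452 lower) in bright and -0.15 (763 genes, 486 lower) in dim CMs. The part of transcript length in the difference of the members was not tested.

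Subunits and assembly factors were compared by the difference of their medians. For the 40 tested members not named Ndufaf and the 8 assembly factors the difference was -0.53 in bright CMs against control, 0.03 in dim CMs against control and -0.28 in bright against dim CMs. The first was -0.20 without control M73 and -0.98 without control M26. The second changed sign, to -0.61 without control M26, -0.25 without dim M25 and -0.22 with the term for the sets, and the third was -0.56 to 0.039 with a mouse left out. In M73 the 4 genes Ndufaf1, Ndufaf2, Ndufaf6 and Ndufaf7 had 9.57 to 12.8 normalized CPM. Against M26 alone, the assembly factors of bright M25 had a median log2 difference of -0.36 (7 of 8 lower) beside -0.46 for the subunits, and those of dim M25 -0.75 (6 of 8 lower) beside -0.33.

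In single cells, the summed CPM of the 36 subunits differed between mice. In cells with at least 1000 genes, the median was 31301 in control M26 and 22978 in control M73, 28729 and 22690 in homozygous bright CMs of M25 and M116, 28823 and 21470 in their dim CMs, and 22000 and 23281 in the bright and dim CMs of M72. The medians of M26 and M25, of set 1, were above those of the 3 mice of the other sets, of which M72 has no mouse of its genotype in set 1. Control M73 ranged from 20990 to 27777, within the range of homozygous bright CMs of M116, from 12667 to 36720. The median number of subunits detected in a cell was 36 of 36 in each class. The assembly factors were detected less evenly, with a median of 8 of 8 in M26 and 5.5 of 8 in M73. Depth differed too, with a median of 932052 counts over all cells of M26 and 498819 over those of M73.

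A few bright CMs of M25 stood below all others. Their sums of subunits were 221, 2400 and 3080 CPM, against 14021 in the next cell of that class. The cell at 2400 CPM was the one low in CM markers, and those at 221 and 3080 CPM had 1117 and 938 genes. Without the cell low in CM markers, the median log2 fold change of the members in bright CMs against control was -0.35. Of the 48 members, 41 were below 0 and 0 were called.

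**Figure D4:**
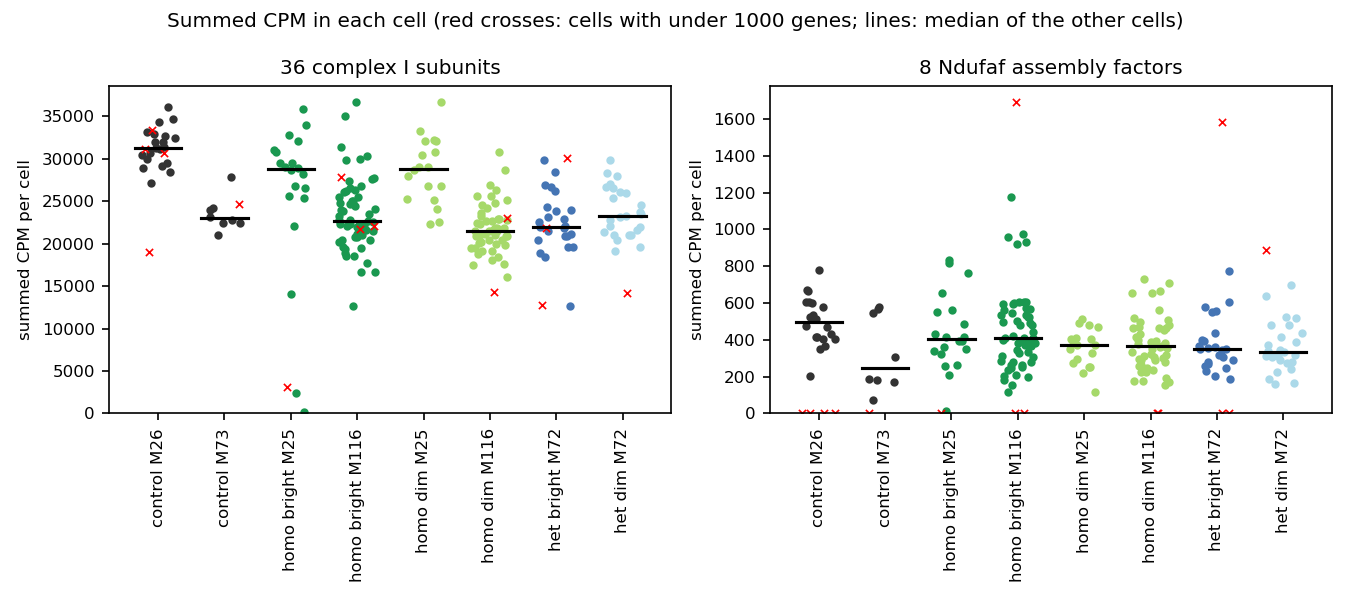
Summed CPM per cell (vertical axes, from 0) of the 36 complex I subunits (left) and of the 8 assembly factors (right) by mouse and brightness class; red crosses are cells with fewer than 1000 genes, lines the medians of the other cells. The medians of the sums of subunits are higher in M26 and M25 than in M73, M116 and M72, while the ranges of cells overlap, and 3 bright cells of M25 lie at 221, 2400 and 3080 CPM.

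Across cells of 1 class and set, subunits varied together to different degrees. For each gene, Spearman's rho with the sum of the other complex I subunits was computed over the cells with at least 1000 genes in each of 9 groups of 18 to 29 cells from 1 class and library set, and the median over the groups was taken. The CPM values share the total of the cell, and cells are not replicates, so these are descriptions. The median over the 36 subunits was 0.44, from 0.00 for Ndufa9 to 0.71 for Ndufa13. Next to Ndufa13 came Ndufb2 (0.67), Ndufb10 (0.66) and Ndufa3 (0.63), and Ndufa4 reached 0.61. The core subunits Ndufv2 (0.17), Ndufs3 (0.18) and Ndufv1 (0.22) were in the lower part. The 8 assembly factors had a median of -0.02 (range -0.10 to 0.19). Most of them are low genes, in which a weak correlation is no finding, but Ndufaf4, at 0.0060, was detected in 99.1% of these cells, close to the 99.5% of Ndufb2.

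**Figure D5:**
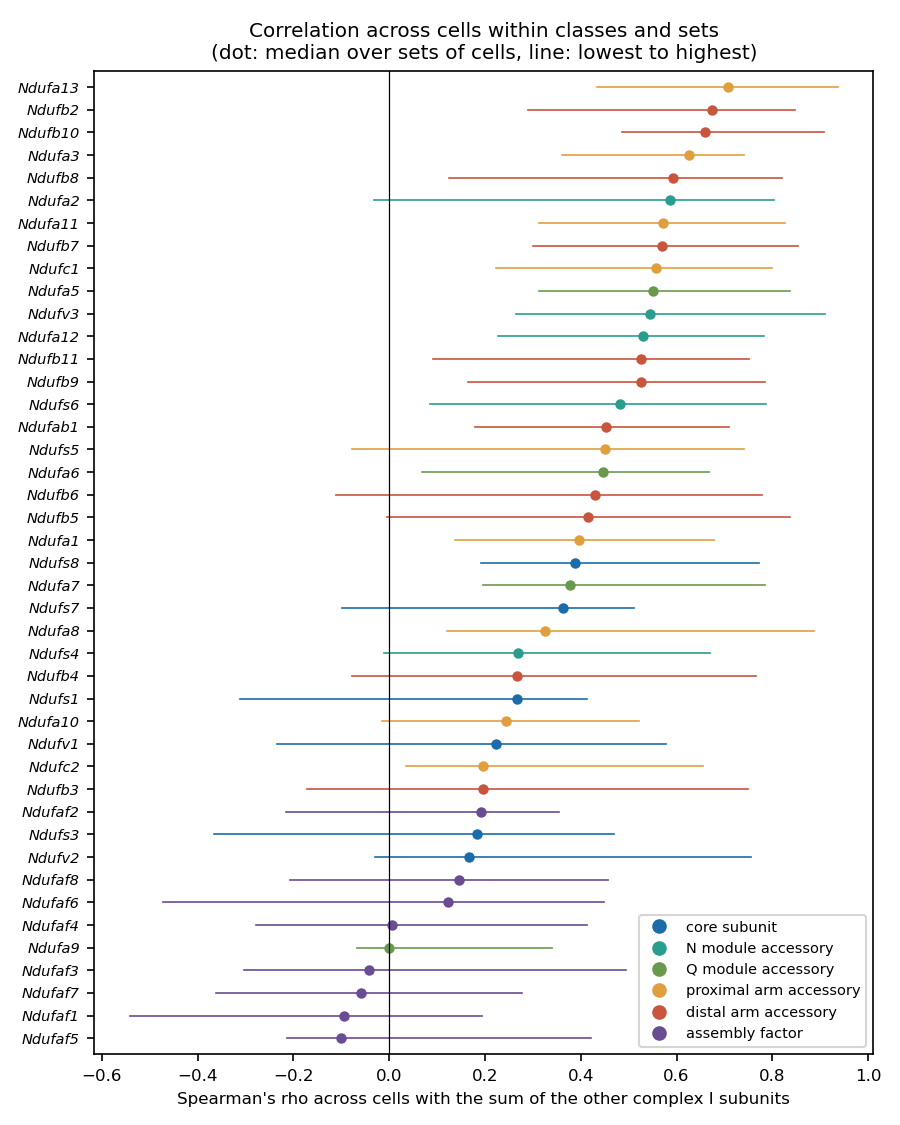
Spearman's rho across cells of each gene with the sum of the other complex I subunits (horizontal axis), as the median (dot) and the lowest to highest value (line) over 9 groups of cells of 1 class and library set. Small accessory subunits such as Ndufa13 (0.71), Ndufb2 (0.67) and Ndufb10 (0.66) stand at the top, and several core subunits and the assembly factors in the lower part.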

How the data were processed

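Single CMs were sequenced with SMART-seq2. STAR, run by the authors against a mouse genome extended by human BAG3 and eGFP, aligned the reads and counted them per gene (GeneCounts), and the deposited values are these raw counts. bcl2fastq is also named in the submitters' processing notes. The genome build, the annotation and the strand column are not given in the sources used here. GeneCounts leaves out reads that map to several places or to overlapping genes, which lowers the counts of genes with near copies. Here 10 of 49 members share more than 10% of their 75-base stretches with another gene.

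Cells were summed per mouse and brightness class. The tool was edgeR 4.0.16 in R 4.3.3, used with filterByExpr (TMM, glmQLFit, glmQLFTest, Benjamini-Hochberg adjustment over all genes, threshold 0.05), with 2 mice a group. The heterozygous mouse has values only. Normalized CPM takes the TMM factors of all 8 sums into account. Depth ranged from 487 to 1392253 counts per cell (median 711527), and the counts are not molecules. Lengths come from the GENCODE vM21 principal transcripts. Bright and dim CMs of M25 and M116 are paired by animal. Over 16615 genes, which are not replicates, the M116 minus M25 differences of bright and of dim CMs had a Pearson's r of 0.072 and Spearman's rho of 0.11, and the fit with the animal as a block was an alternative. The other alternatives were DESeq2 1.42.0, library size alone, no filter, cells with at least 1000 genes, equal weight per cell with limma 3.58.1, set 1 against sets 2 to 4 as a block and each mouse left out. Added after seeing the data were equal weight with cells of at least 1000 genes, cells with at least 1000 CPM of CM markers, the 36 structural subunits alone, genes of like length and level, and bright minus dim CMs within each set of M116.

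The members, the role lists and the tests were chosen with earlier results of these data known. Named were the genes past the threshold and, among those whose mice did not overlap, up to 5 with the largest fall and 5 with the largest rise in each comparison. Levels were given for the core subunits, Ndufs4, Ndufs6, Ndufa4, Ndufa4l2, Ndufab1 and the Ndufaf genes, apart from 1 gene that is not reported here, and Ndufb10, Ndufa11b and the cells low in subunits were singled out after their values were seen. Ndufs6b and Ndufa11b were in no role list and were put with the other Nduf names once they were found among the features.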

Additional observations from a re-analysis of the deposited data

Results flagged for a closer look

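Among the 5 genes whose bright and dim sums of the homozygous mice did not overlap, 3 had the opposite sign of that difference in the heterozygous mouse. The log2 difference of Ndufv2, bright minus dim, was -0.13 in M25 and -0.14 in M116 and 0.20 in M72. For Ndufaf3 it was 0.55 and 0.19 in the homozygous mice and -0.53 in M72. For Ndufv1 it was 0.13 and 0.084 in the homozygous mice and -0.095 in M72. The CMs of M116 came from 2 library sets in unequal shares. Within them Ndufv2 was at -0.22 in set 3 and -0.15 in set 4, whereas Ndufaf3 was at -0.11 and 0.44 and Ndufv1 at 0.16 and -0.066, so that the sign of these 2 did not hold in each set. The difference between the genotypes was not tested, since the heterozygous group is 1 mouse.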

How the results depend on the processing

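The count of members called was 0 in all 3 comparisons under each alternative, so the settings bear only on sizes and signs. Over all genes DESeq2 called 92, 53 and 91 where edgeR called 2, 0 and 0 in bright against control, dim against control and bright against dim CMs. In bright CMs against control, the median over the members was 0.16 with equal weight for each cell, where 19 of 48 were lower, -0.30 when that was limited to cells with at least 1000 genes, and -0.11 with library size alone, where the median of all genes was 0.41 and 33 of 48 members were lower. The median of all genes was 0.32 with equal weight and 0.21 with that limit. The median over the members was -0.60 to -0.20 with a mouse left out, and without control M26 that of all genes was 0.94. The difference of subunits and assembly factors was -0.72 and -0.87 with equal weight, without and with that limit, -0.74 with set 1 against sets 2 to 4 as a block, and -0.98 to -0.20 with a mouse left out. Ndufa3 reversed to 0.25 with equal weight and was at -0.61 with the limit.

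In dim CMs against control, the median was 0.46 with equal weight, where 8 of 48 members were lower, -0.04 with the limit, -0.10 with library size alone, where the median of all genes was 0.38 and 34 of 48 members were lower, and -0.62 to -0.12 with a mouse left out. The difference of subunits and assembly factors was -0.22 with set 1 against sets 2 to 4 as a block and -0.61 to 0.12 with a mouse left out. Ndufaf3 reversed to 0.82 with equal weight and to 0.27 with the limit.

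In bright against dim CMs, the median was -0.42 with equal weight, where 44 of 48 members were lower, -0.26 with the limit, where 43 of 48 were lower, and -0.28 to 0.24 with a mouse left out, where 4 to 40 of 48 members were lower, and the difference of subunits and assembly factors -0.56 to 0.039. Ndufv1 reversed to -0.32 with equal weight and to -0.18 with the limit. With the animal as a block, pairing bright and dim CMs, the median was -0.04 and the difference -0.27, and no call changed. The cause of these shifts was not tested. The other named genes kept the sign of their log2 fold change under each alternative. The 2 mice a group, partly in different library sets, and the small sum of M73 limit these comparisons.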
